A study of Mus musculus with 30 samples.

Results

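Liver RNA of 4 mice that had received Printex 90 carbon black in the airways, numbered 176, 177, 179 and 180, was compared with liver RNA of 6 control mice numbered 547 to 552. These are 10 of the 30 arrays of a study of how the liver responds when carbon black nanoparticles are deposited in the lung. The animals were chosen by the number runs in their labels, which fall into 3 runs of controls and 3 of exposed animals. The sources used here do not say what a run stands for, nor which control run belongs to which exposed run, so no time after instillation is given.

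All mice were female C57BL/6, acquired from Taconic at 5 to 6 weeks of age. Exposed mice received 0.162 mg of Printex 90, an industrial carbon black, suspended by sonication in saline with 10% mouse lavage fluid freed of cells. The suspension was given into the trachea as 40 µl, followed by 150 µl of air. The treatment of the controls is labelled none, and whether they received vehicle is not stated. Each array carried the Cy5-labelled liver RNA of 1 mouse and a Cy3-labelled universal mouse reference RNA. The design text counts 6 mice in each treatment group, of which 4 exposed mice are in this run.

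A value below is a log2 ratio of liver to reference signal, so that 1 unit is a 2-fold difference, and a difference is the exposed mean minus the control mean with its standard error (SE). Ratios of different genes share no scale and were not compared with each other. Hepatocytes make cholesterol through the mevalonate pathway, whose enzyme genes are switched on together by the sterol-sensing transcription factor SREBP2 when membrane sterol falls. The liver also answers cytokines from distant inflamed tissue with acute phase proteins, and answers interferons with a broad antiviral gene set. Its collagens, vessels and immune cells come from non-parenchymal cells, which are a minority of the tissue. In whole liver, fewer cells of a type and less RNA per cell cannot be told apart.

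Across the 10 arrays the Cy5 signal had medians of 104 to 169, and Cy5 exceeded its background clearly at 50% to 71.3% of probes. Precision is limited by how few arrays there are. Pairwise correlations of log2 ratios ran from 0.9375 to 0.9885. Exposed mouse 176 and control 552 stood apart on the first principal component, at 40.3 and -35.3, and control 552 was extracted with an older software release. All exposed samples lay at position 3 of their slide and all controls at position 1, so position and exposure cannot be told apart. On 4 slides an exposed mouse and a control shared the slide (180 with 547, 176 with 550, 179 with 548 and 177 with 549), which allowed differences within a slide. Alb, encoding albumin, lay between 4.41 and 5.33 in the exposed mice and between 4.11 and 5.26 in the controls. Of 6 tested hepatocyte markers 0 passed the test, 2 were above 0 and 4 below, with a median difference of -0.02. The marker Ttr differed by -1.21 and is described with the acute phase genes. Hnf4a was 3.75 in mouse 176, below the controls of 4.80 to 5.30. Of the lung epithelium markers 5 of 8 were measurable and 0 passed.

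The exposed livers had more RNA for cholesterol-synthesis enzymes, led by Lss and Mvk, and for the siderophore-binding protein Lcn2. They had less RNA for the collagen Col3a1, the cytoskeletal genes Stmn1 and Vim, the interferon-response genes Ifi27l2a, Usp18 and Bst2, and the replication genes Rrm1 and Rfc4. By limma's moderated test with Benjamini-Hochberg adjustment, 58 of 23607 probes passed an adjusted p of 0.05 (0.246%), 31 higher and 27 lower in the exposed mice. At gene level, with 1 probe for each of 12188 named genes, 15 rose (0.123%) and 22 fell (0.181%). Of these 37 genes 6 differed by more than 2-fold, and the sizes ran from 0.27 to 2.03 on the log2 scale. The 4 exposed values did not overlap the 6 control values for 30 of the 37, where 88 of all tested genes (0.722%) were higher without overlap and 249 (2.04%) lower. On all 4 shared slides 36 of the 37 went the same way. Among all genes 768 (6.3%) were higher and 1423 (11.7%) lower on 4 of 4 slides. The 37 genes were chosen by this same difference in these same mice, which favours both counts, so they are no independent evidence.

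The number of passing probes depended on the fit. Leaving out mouse 177 left 1 passing probe, a fit of only these 10 arrays left 3, a fixed slide term left 7 (all higher), and the use of the controls of all 3 runs gave 1132 (378 higher and 754 lower). Centring each array on its median in place of loess moved the median of all genes by 0.14, and 45 probes then passed, 44 higher and 1 lower. Without mouse 176, 16 probes passed, 15 higher and 1 lower, and of the 37 genes 4 rises (Lss, Mvk, Treh and Pradc1) and 1 fall (Laptm4b) still passed.

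**Figure D1:**
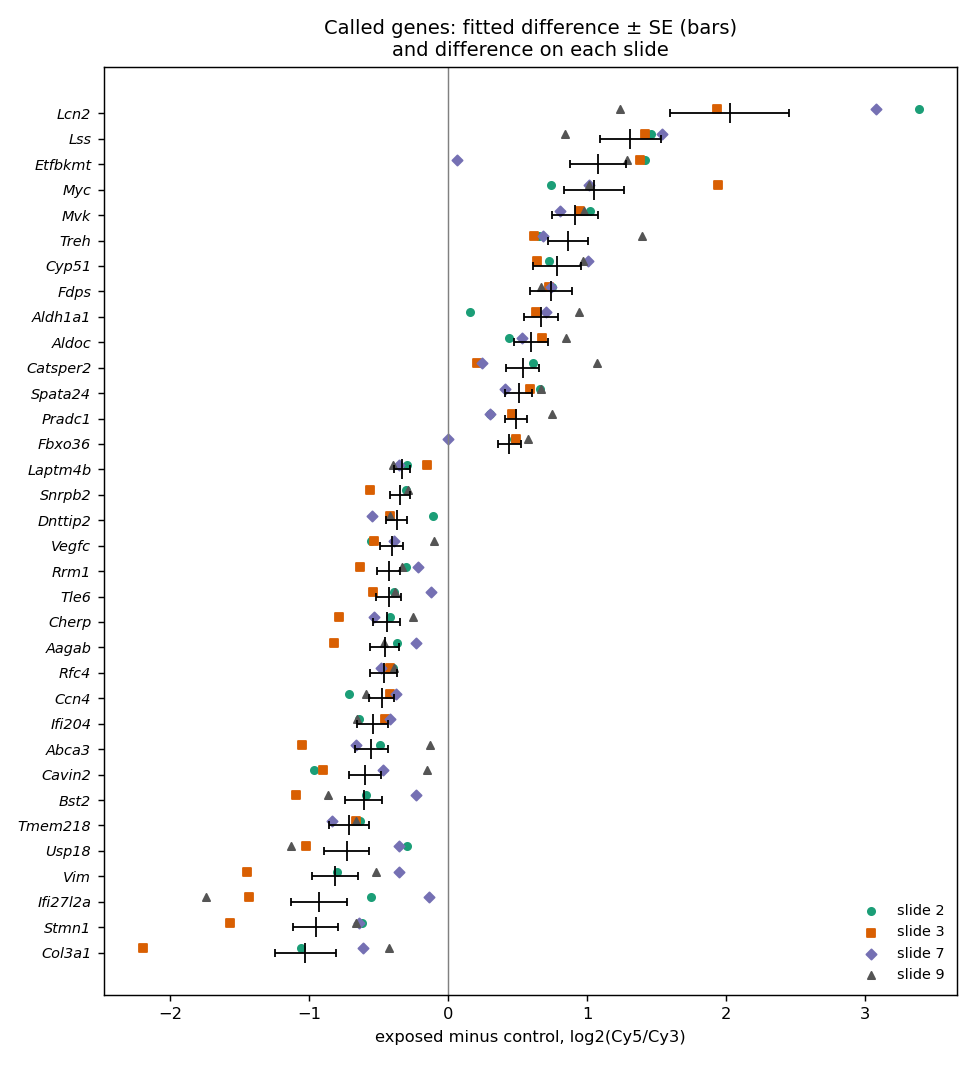
Fitted exposed-minus-control difference (vertical tick with its SE as a bar) and the difference on each of 4 slides (symbols), in log2 units, for 14 of the genes that rose and the 20 largest falls. All symbols of a gene lie on the side of its fitted difference, which the choice of genes by that difference favours. Snrpb2 has 3 slides, and the slide 7 values of Etfbkmt and Fbxo36 lie close to 0.

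Cholesterol synthesis was the gene list with the largest median difference among the pathway lists. Of its 20 enzymes 19 were measurable, 5 rose, among them Lss, Mvk, Cyp51 and Fdps, and 0 fell, and the median difference was 0.69 against -0.04 over all tested genes. Of the 19 enzymes 16 had a difference above 0 (38.9% of all tested genes did). In 11 the exposed values were all above every control value, and 13 were higher on 4 of 4 slides. Over all tested genes 0.722% were higher without overlap and 6.3% higher on 4 of 4 slides. The mean ratio over the 19 enzymes was 2.74 to 3.12 in the 4 exposed mice and 2.13 to 2.60 in the 6 controls, so the groups did not overlap. The enzymes were listed with earlier results of these data known, and the list is therefore no independent evidence of its direction.

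Promoter sequences of Lss and Mvk, the cholesterol enzymes with the smallest adjusted p-values, are shown as windows of 300 bases around the annotated start (RefSeq, GRCm38.p6, strand of the gene, 5′ to 3′). Lss lies at chr10:76531355-76531654 on the plus strand and Mvk at chr5:114444019-114444318 on the plus strand. Capitals mark CCAAT or its reverse complement ATTGG, the box bound by NF-Y, a known partner of SREBP.
Lss: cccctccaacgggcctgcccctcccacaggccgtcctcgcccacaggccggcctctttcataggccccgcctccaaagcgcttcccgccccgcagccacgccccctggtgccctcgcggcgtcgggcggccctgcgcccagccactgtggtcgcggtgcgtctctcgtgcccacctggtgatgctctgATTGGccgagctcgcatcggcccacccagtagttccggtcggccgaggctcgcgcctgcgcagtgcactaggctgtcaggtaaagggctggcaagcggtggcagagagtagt
Mvk: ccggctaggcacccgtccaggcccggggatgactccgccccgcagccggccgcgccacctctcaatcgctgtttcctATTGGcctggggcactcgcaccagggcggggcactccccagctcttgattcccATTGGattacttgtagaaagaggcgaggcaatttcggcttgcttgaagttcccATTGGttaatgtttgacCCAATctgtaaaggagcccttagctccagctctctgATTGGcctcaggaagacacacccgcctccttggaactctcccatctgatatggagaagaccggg
The Lss window held 1 such match and the Mvk window 5. On both strands, CCAAT was present in 13 of 17 promoters of the measured cholesterol enzymes (76.5%) and in 37.4% of 32851 mouse promoters, a common motif; this motif was added after the values were seen. The sterol response element TCACNCCAC was present in 1 of the 17 (5.88%, Hmgcs1) and in 1.24% of all. A match is a description of letters only. The table used held promoters of 14 of the 19 measured enzymes.

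**Figure D2:**
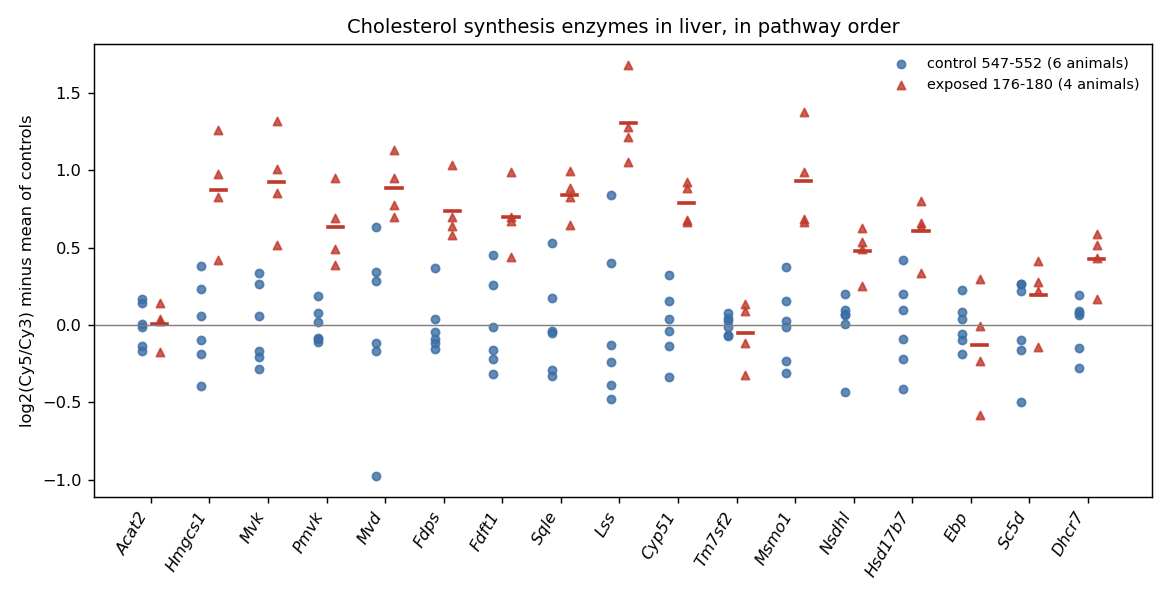
Log2 ratio of each animal minus the control mean of that gene, for 17 cholesterol-synthesis enzymes in pathway order (circles, 6 controls; triangles, 4 exposed mice; bars, exposed means). From Hmgcs1 to Hsd17b7 the exposed means lie between 0.47 and 1.31 above the control mean except for Tm7sf2. Acat2, Ebp and Sc5d lie close to 0, and Dhcr7, drawn last, has a fitted difference of 0.42.

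Mvk, the kinase that phosphorylates mevalonate, had ratios of 1.87, 2.17, 1.37 and 1.71 in mice 176, 177, 179 and 180, against controls of 0.57, 0.80 and 1.19 (lowest, median, highest). All 4 exposed mice were above every control, and the difference was 0.91 ± 0.16 (adjusted p = 0.0161). Between this step and the sterols stands Fdps, which makes farnesyl diphosphate. Its ratios of 2.35, 2.75, 2.30 and 2.41 lay above controls of 1.55 to 2.08 (median 1.65), a difference of 0.74 ± 0.15 (adjusted p = 0.0338).

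Lss encodes lanosterol synthase, which closes the sterol ring, and had the largest rise of the pathway. Its ratios were 2.57, 2.97, 2.34 and 2.50 in the exposed mice, against 0.80, 1.1 and 2.13 in the controls (lowest, median, highest). The groups did not overlap, and the difference of 1.31 ± 0.22 was a 2.48-fold rise (adjusted p = 0.0119). Within the 4 slides the Lss differences were 1.46, 1.42, 1.54 and 0.84. A second Lss probe gave 1.25 (adjusted p = 0.0108). Cyp51, the demethylase that acts on lanosterol, had ratios of 2.76, 3.01, 2.75 and 2.96 against controls of 1.74 to 2.40, a difference of 0.78 ± 0.17 (adjusted p = 0.0404). Second probes of Mvk and Cyp51 also rose, at 0.79 and 0.83, and another Cyp51 probe at 0.90 did not pass (adjusted p = 0.0603).

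The remaining enzymes did not pass on the chosen probe. Msmo1, Hmgcs1, Mvd, Sqle, Pmvk and Nsdhl had no overlap between the groups, with differences of 0.92, 0.87, 0.84, 0.81, 0.64 and 0.47 and adjusted p-values from 0.0728 to 0.246. Another Pmvk probe rose by 0.70 (adjusted p = 0.0404). Fdft1, Hsd17b7 and Dhcr7 had differences of 0.69, 0.60 and 0.42 with overlapping values. Sc5d, Acat2, Tm7sf2 and Ebp lay between -0.12 and 0.17. The enzymes with differences above 0.4 ran from Hmgcs1, which makes the precursor of mevalonate, through the sterol-forming steps, and among the late steps Ebp and Sc5d had smaller ones.

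In the list of SREBP regulation and uptake 0 of 14 measured members passed, and the median difference was 0.12. Srebf2, the gene for SREBP2, had ratios of 0.32, 0.29, -0.02 and 0.09 against controls from -0.67 to -0.17, without overlap, and a difference of 0.54 ± 0.13 (adjusted p = 0.0604). Cyp7a1, the first enzyme of bile acid synthesis, and Abca1, the cholesterol exporter, differed by -0.08 and -0.22 and did not pass. In fatty acid synthesis 0 of 21 members passed, with a median of 0.04; Scd1, the stearoyl-CoA desaturase, was lower without overlap by -0.94 (adjusted p = 0.0804).

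**Figure D3:**
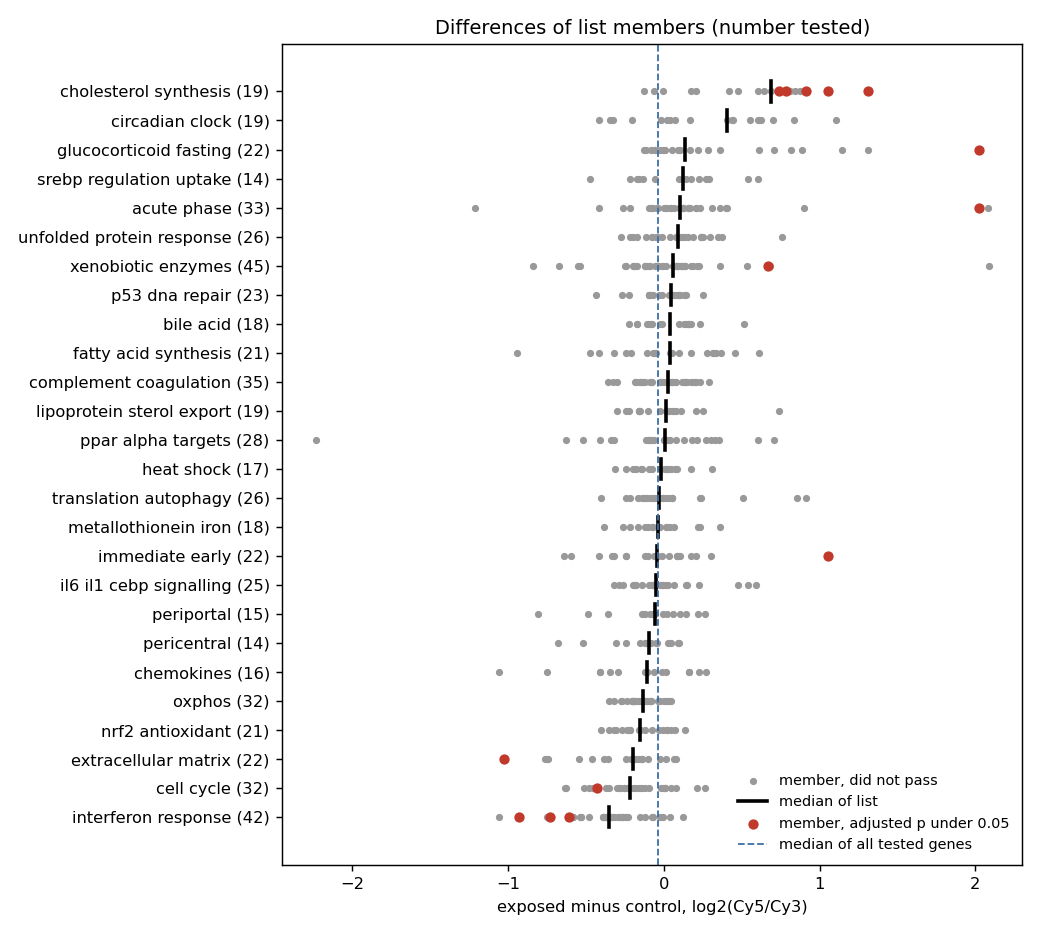
Exposed-minus-control log2 difference of every measured member of 26 pathway lists (grey, did not pass; red, adjusted p under 0.05), with each list's median (black) and the median of all tested genes (dashed, -0.04). Cholesterol synthesis has its median at 0.69 and interferon response at -0.35, at the ends of the order.

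Interferon-response genes stood at the other end of the order. Of 48 listed genes 42 were measurable, 3 fell (Ifi27l2a, Usp18 and Bst2) and 0 rose; the median difference was -0.35 and 40 of the 42 were below 0, against 61.1% of all tested genes. Exposed values were all below every control for 3 of the 42 genes, and 16 were lower on 4 of 4 slides, against the backgrounds of 2.04% and 11.7% given above. The mean ratio over the list was 0.32 to 0.85 in the exposed mice and 0.78 to 1.23 in the controls, with overlap between exposed mouse 179 and the lower controls. Without mouse 176 the median difference was -0.29 and 0 of the 42 genes passed. With median centring it was -0.19 and 0 passed.

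Bst2 encodes tetherin, a membrane protein that holds budding virus at the cell surface, and its promoter is shown because the table held no entry for Ifi27l2a or Usp18. It lies at chr8:71537423-71537722 on the minus strand and is printed on the gene's strand, with capitals for the core of the interferon-stimulated response element, which is GAAA, then any 2 bases, then GAAA.
Bst2: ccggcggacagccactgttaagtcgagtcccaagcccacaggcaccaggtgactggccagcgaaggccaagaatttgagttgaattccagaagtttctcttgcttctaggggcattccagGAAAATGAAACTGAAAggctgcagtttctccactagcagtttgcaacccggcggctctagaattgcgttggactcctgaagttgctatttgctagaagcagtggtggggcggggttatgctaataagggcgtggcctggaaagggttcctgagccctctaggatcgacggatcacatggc
The capitals hold 2 overlapping matches. On both strands the motif was present in 19 of 37 promoters of measured interferon-response genes (51.4%) and in 3.44% of all 32851. Bst2 ratios were 0.44, 0.77, 1.17 and 0.97 in the exposed mice, and 0.87, 1.54 and 1.65 in the controls (lowest, median, highest). The groups overlapped through control 551, which lay below the other 5 controls, and the difference was -0.61 ± 0.13 (adjusted p = 0.0404).

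Ifi27l2a, an interferon-induced gene, had ratios of -1.45, -1.43, -0.75 and -1.14 against controls of -0.69, -0.30 and 0.31. The exposed values were all below the controls, by a narrow margin in mouse 179, and the difference was -0.93 ± 0.20 (adjusted p = 0.0404). A second probe differed by -0.66 (adjusted p = 0.0959). Usp18, the protease that removes ISG15 from proteins and damps interferon signalling, had ratios of -1.56, -1.37, -0.93 and -1.37 against -1.08, -0.52 and -0.24. Mouse 179 lay inside the control range, and the difference was -0.73 ± 0.16 (adjusted p = 0.0404). Ifi204, a DNA-sensing interferon-inducible gene outside the list, fell by 0.54 on its brightest probe (adjusted p = 0.0349), and its other 2 probes did not pass, at -0.39 and -0.08. Among members that did not pass, the chemokines Cxcl9 and Cxcl10 differed by -1.06 (adjusted p = 0.296) and -0.75 (adjusted p = 0.181), and Isg15 by -0.60.

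**Figure D4:**
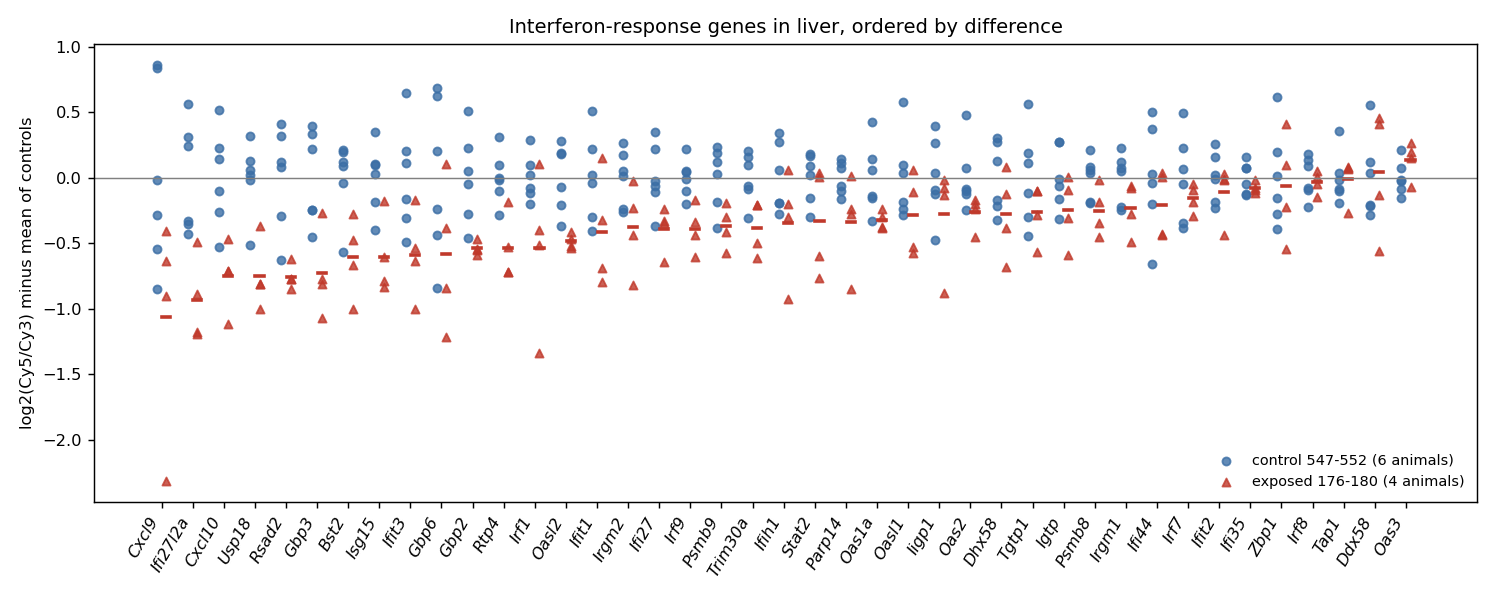
Log2 ratio of each animal minus the control mean, for 41 interferon-response genes ordered by difference (circles, 6 controls; triangles, 4 exposed mice; bars, exposed means). The exposed mean is below 0 for most genes, with overlapping animals for 38 of the 41.

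Among the control runs, the one used here had the lowest interferon list mean, and the part of run in the interferon difference was not tested. In controls 547 to 552 the list mean was 0.99 ± 0.20 (SD, n = 6), against 1.2 ± 0.21 in controls 570 to 575 and 1.34 ± 0.13 in controls 595 to 600, and it was 0.60 ± 0.22 (SD, n = 4) in the exposed mice. The other exposed runs, 193 to 197 and 212 to 216, had list means of 1.27 ± 0.28 and 1.02 ± 0.11. Against the controls of all 3 runs the median difference was -0.54 and 27 of the 42 genes fell. Of all 23607 tested probes 1132 passed in that fit (378 higher and 754 lower), which mixes run with exposure. For cholesterol synthesis the 3 control runs had list means of 2.33 ± 0.18, 2.16 ± 0.22 and 2.31 ± 0.38 against 2.93 ± 0.16 in the exposed mice, and 13 of 19 enzymes rose against all controls.

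Among acute phase genes, Lcn2 was the single gene that rose. Of 35 listed genes 33 were measurable, 1 rose and 0 fell, where 0.123% of all tested genes rose. The median difference was 0.10 and 24 were above 0, against 38.9% of all tested genes. The list held 0 genes free of overlap, where 0.722% of all tested genes were higher without overlap. Lcn2 encodes lipocalin 2, which binds bacterial siderophores and is made by hepatocytes under cytokine stimulation and by neutrophils. Its ratios were 3.14, 3.47, 4.08 and 3.85 in the exposed mice, and 0.46, 1.18 and 3.81 in the controls. Control 551 lay among the exposed values and control 549 at 2.24; the other 4 controls lay at 1.21 or below. The difference was 2.03 ± 0.43, a 4.07-fold rise and the largest of all genes that passed (adjusted p = 0.0374).

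Saa3, a serum amyloid A gene, split the controls in the same way. Its ratios were 2.31, 1.49, 3.87 and 3.85 in the exposed mice and -0.71, 0.08 and 3.39 in the controls (lowest, median, highest). Controls 551 and 549 were again the high ones, at 3.39 and 2.29, inside the exposed range. The difference of 2.08 ± 0.54 did not pass (adjusted p = 0.102). Saa1 and Saa2, the main circulating forms, differed by 0.40 and -0.41, haptoglobin (Hp) by 0.20 and Serpina3n by 0.41. Orm2 differed by 0.105 and Orm3 by 0.90, and 0 of all these genes passed. Ttr, encoding the thyroid hormone carrier transthyretin, had ratios of 3.41, 5.18, 3.39 and 5.04 against controls of 5.05 to 6.05, a difference of -1.21 that did not pass (adjusted p = 0.0657). Mice 176 and 179 carried that difference, which turned to 0.52 with the scanner's processed signals. With median centring it was -1.12 and passed (adjusted p = 0.0404).

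Lcn2 is itself a neutrophil marker. Of 15 listed neutrophil genes 6 were measurable and 1, Lcn2 itself, rose. The summed level, as the mean of the 6, was 0.73 to 0.93 in the exposed mice and -0.15 to 0.72 in the controls. Without Lcn2 the mean of the other 5 was 0.17 to 0.42 and -0.35 to 0.11. Of the 6 genes 3 cleared the background on all 10 arrays, and S100a8, Mmp9 and Mpo did not, so these means rest partly on dim probes. S100a8, a calprotectin subunit, differed by 0.33 without overlap (adjusted p = 0.310), where 0.722% of all tested genes were higher without overlap. With overlapping values, S100a9 differed by 0.71 (adjusted p = 0.444), Chil3 by 0.58 (adjusted p = 0.214) and Mpo, the granule peroxidase, by -0.01. The granule genes Ngp, Camp and Ltf were not measured well enough to test. The part of neutrophils in the Lcn2 difference was not tested.

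The collagen gene Col3a1 and the cytoskeletal genes Stmn1 and Vim fell. In the extracellular matrix list 22 of 22 genes were measurable, 1 fell (Col3a1) and 0 rose. The median difference was -0.20, and -0.02 with median centring, and 19 of the 22 were below 0, against 61.1% of all tested genes. In 6 of the 22 genes every exposed mouse was below all controls (Col3a1, Col1a1, Timp2, Sparc, Timp3 and Col4a1). Of all tested genes 2.04% were lower without overlap. Col3a1, a fibrillar collagen, had ratios of -4.94, -3.87, -3.73 and -3.85 against -3.44, -3.00 and -2.75 in the controls. Mouse 176 was far below the other 3, which still lay below every control, and the difference was -1.03 ± 0.22, to 0.490 of the control level (adjusted p = 0.0382). Without mouse 176 the Col3a1 difference was -0.73 and did not pass (adjusted p = 0.204). Col1a1 differed by -0.75 (adjusted p = 0.119) and Sparc by -0.46 (adjusted p = 0.181), both without overlap and neither passing.

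Stmn1, encoding stathmin, which destabilises microtubules and is raised in dividing cells, had ratios of -5.14, -4.93, -4.72 and -4.64 against -4.27, -4.02 and -3.22. All exposed values were below the controls, and the difference was -0.95 ± 0.16 (adjusted p = 0.0119), although a second probe differed by -0.27 and did not pass (adjusted p = 0.182). Vim, the intermediate filament of mesenchymal cells, had ratios of -7.15, -6.31, -6.38 and -6.57 against -6.02, -5.74 and -5.53, a difference of -0.82 ± 0.16 (adjusted p = 0.0338), which was -0.62 and did not pass without mouse 176 (adjusted p = 0.154). Cavin2, a coat protein of caveolae, fell by 0.60 (adjusted p = 0.0213) from a narrow control range of -1.99 to -1.85. Ccn4, a matricellular WNT target, fell by 0.48, and Vegfc, a growth factor of lymphatic vessels, by 0.40.

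Most markers of the non-parenchymal cells in this paragraph were below 0 beside these genes, and 0 members of these lists passed. Of all tested genes 61.1% were below 0. All 13 endothelial markers were below 0 with a median of -0.27, which was -0.13 without mouse 176 and -0.12 with median centring. Their mean ratio was 1.69 to 2.41 in the exposed mice and 2.13 to 2.67 in the controls. All 9 measurable genes of antigen-presenting cells were below 0 with a median of -0.31, which was -0.29 without mouse 176 and -0.22 with median centring. Cd74, the invariant chain, differed by -0.51 without overlap (adjusted p = 0.226). Stellate cell markers had a median of -0.19, which was 0.07 without mouse 176, with means of -0.46 to 0.34 against 0.00 to 0.55. Cholangiocyte markers were below 0 in 8 of 8 with a median of -0.22, which was 0.01 with median centring. Kupffer cell markers were below 0 in 12 of 13 with a median of -0.15, which was also 0.01 with median centring. The part of cell composition in the falls of Col3a1, Vim and Cavin2 was not tested.

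Of the genes of DNA replication, Rrm1 and Rfc4 fell. In the cell cycle list 32 of 37 genes were measurable, 1 fell (Rrm1) and 0 rose. The median difference was -0.21, and -0.04 with median centring, and 25 of the 32 were below 0, where 61.1% of all tested genes were. Rrm1, the large subunit of ribonucleotide reductase, had ratios of -3.81, -3.68, -3.59 and -3.81 against controls of -3.50, -3.31 and -2.99. The groups did not overlap, and the difference was -0.43 ± 0.08 (adjusted p = 0.0213). Tyms, the thymidylate synthase, and Mcm4, a helicase subunit, were also without overlap at -0.35 and -0.48, and did not pass (both adjusted p = 0.0854). In the list 3 of 32 genes were lower without overlap, where 2.04% of all tested genes were. Outside the list Rfc4, a subunit of the clamp loader, fell by 0.46 (adjusted p = 0.0383), and Pttg1, the separase inhibitor securin, by 0.30 (adjusted p = 0.0410). Anapc2, of the anaphase-promoting complex, fell by 0.27 (adjusted p = 0.0404), but its other 2 probes lay at 0.02 and -0.08. Pttg1 and Anapc2 each turned sign under 1 of 28 alternative settings.

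Myc, the growth-promoting transcription factor, rose. Its ratios were -1.74, -2.29, -2.42 and -2.63 in the exposed mice and -3.68, -3.34 and -2.76 in the controls, without overlap. The difference was 1.05 ± 0.22 (adjusted p = 0.0338); a second probe was at 1.02 (adjusted p = 0.0213) and another did not pass at 0.36 (adjusted p = 0.258). Myc was the 1 gene of 22 in the immediate early list that passed, and the median of that list was -0.04.

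Rises in metabolism outside the sterol pathway were scattered. Aldh1a1, a dehydrogenase that makes retinoic acid, rose by 0.67 ± 0.12 (adjusted p = 0.0213). Its ratios were 6.47, 6.56, 6.37 and 6.05, above controls of 5.24, 5.74 and 5.90. It was the 1 of 45 measured xenobiotic enzymes that passed. Sult1e1, the estrogen sulfotransferase, had ratios of 4.40, 6.38, 3.40 and 3.37 against 1.36, 2.20 and 3.21, a difference of 2.09 ± 0.55 that did not pass (adjusted p = 0.112). Mouse 177 carried much of it, and the groups did not overlap. Etfbkmt, the methyltransferase of an electron transfer flavoprotein subunit, rose by 1.08 ± 0.20 (adjusted p = 0.0213), with ratios of 2.11, 2.20, 1.16 and 1.81 against 0.39, 0.81 and 1.1. Aldoc, a glycolytic aldolase, rose by 0.59 (adjusted p = 0.0368).

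Treh, encoding trehalase, had ratios of 1.11, 1.92, 1.56 and 1.53 against controls of 0.49, 0.67 and 0.88, and a difference of 0.86 ± 0.14 (adjusted p = 0.0108). With the scanner's own processed signals the Treh difference was -0.15 and did not pass (adjusted p = 0.913), and the cause was not tested. The other rises were Catsper2 and Spata24, both named for sperm, at 0.54 and 0.51, Pradc1 at 0.49 (adjusted p = 0.0108) and Fbxo36, an F-box gene, at 0.44. Pradc1 ratios were 0.36, 0.62, 0.31 and 0.41 against -0.24, -0.05 and 0.11, a small difference with little spread. The other falls were Tmem218 at -0.71, the lipid transporter Abca3 at -0.55, Aagab at -0.46, Cherp at -0.44, Tle6 at -0.43, Dnttip2 at -0.37, the splicing factor Snrpb2 at -0.35 and the lysosomal protein Laptm4b at -0.33. Other probes of Abca3, Snrpb2 and Laptm4b did not pass.

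Several lists that could respond to particles or cytokines held no gene that passed. In the NRF2 antioxidant list 0 of 21 passed, and Hmox1, the heme oxygenase induced by oxidative stress, differed by -0.35 (adjusted p = 0.358). The metallothioneins Mt1 and Mt2 differed by -0.07 and 0.36, and 0 of 18 genes of metal and iron handling passed. Of 25 genes of interleukin signalling 0 passed, and Cxcl1, a neutrophil chemokine, differed by -0.01. Complement and coagulation (35 measured), PPARα targets (28) and bile acid genes (18) also held 0. Hao2, a peroxisomal hydroxyacid oxidase, had ratios of 0.99, 3.80, 3.31 and -0.04 against 3.64, 4.34 and 4.84, a difference of -2.23 with a wide spread that did not pass (adjusted p = 0.0908). Among circadian clock genes 0 of 19 passed; the median was 0.40 with 1 probe per gene and 0.06 over all their probes.

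The other exposed runs showed smaller differences for all 37 genes that passed, which the choice of genes by the first comparison favours. Each of these runs was set against the control run of the same place in the number order, an assumption the labels do not state. Their fits share slides and variance with the first comparison but no animals. Lss differed by 0.38 (193 to 197) and 0.42 (212 to 216), Mvk by 0.30 and 0.31, and Lcn2 by 0.32 and 0.13. Col3a1 differed by -0.02 and -0.27, Stmn1 by 0.03 and -0.24 and Usp18 by 0.11 and -0.29. The median of the cholesterol list was 0.10 and 0.25, and that of the interferon list 0.04 and -0.33. The difference between the first comparison and the mean of the other 2 was itself tested: 0 of 23607 probes passed by limma's moderated test with Benjamini-Hochberg adjustment (smallest adjusted p = 0.255), and 2405 had an unadjusted p under 0.05. No gene was therefore shown to be particular to mice 176 to 180. Of the 15 genes that rose, 10 and 14 were above 0 in the other comparisons, where 60% and 51.6% of all genes were above 0. Of the 22 that fell, 11 and 19 were below 0.

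**Figure D5:**
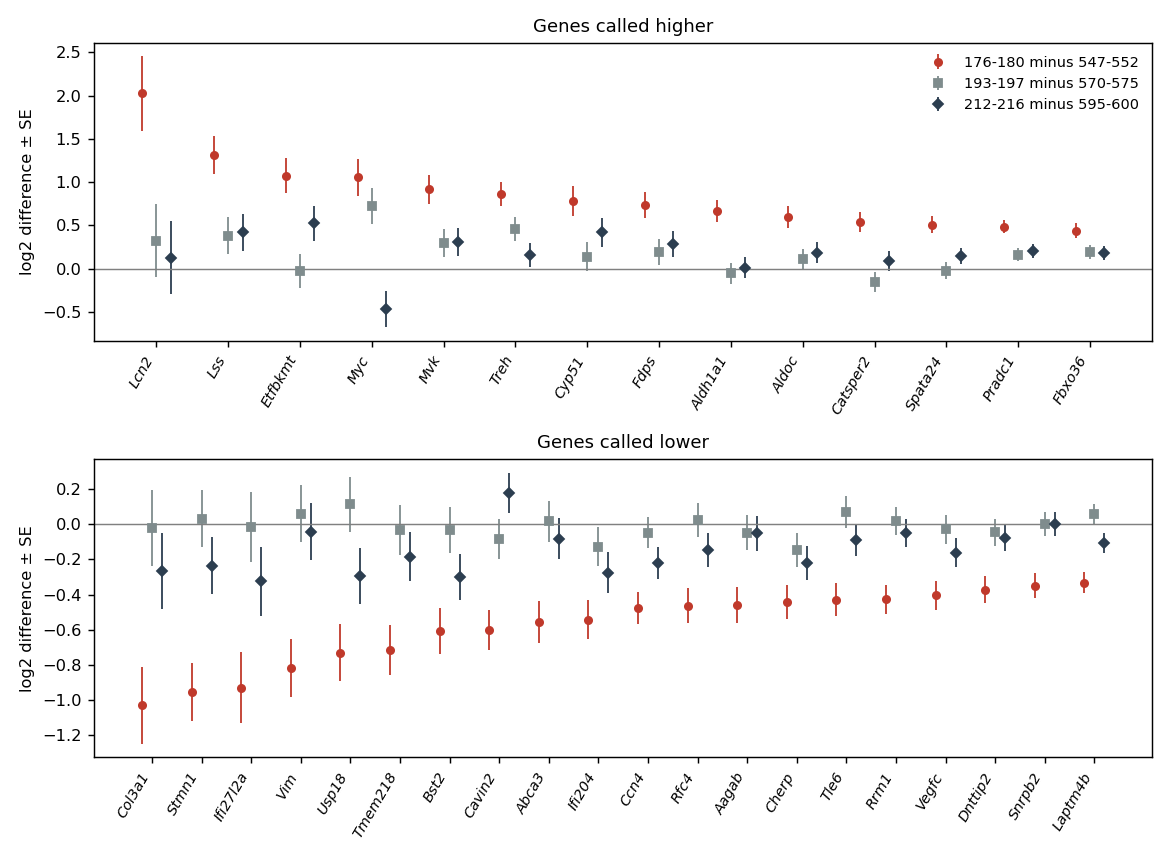
Log2 difference with its SE for 14 of the genes called higher and the 20 largest called lower, in mice 176 to 180 against 547 to 552 (circles) and in 193 to 197 against 570 to 575 (squares) and 212 to 216 against 595 to 600 (diamonds). The circles lie farthest from 0 for every gene shown, which the choice of genes by that comparison favours; Myc lies at 0.72 and -0.47 in the other 2.

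The reference channel was examined as a background, since it held the same RNA on every array. Of 23607 probes 1 passed between the slide positions of the exposed and control samples, and 1978 (8.38%) had an unadjusted p under 0.05. Of the 58 probes that passed for the liver, 7 had an unadjusted p under 0.05 and 1 an adjusted p under 0.05 in the reference channel. The part of slide position in the liver differences was not tested beyond these counts.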

How the data were processed

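Liver RNA of single mice (200 ng) was labelled with Cy5 and a universal reference with Cy3, without dye swap, per the labels' protocols. The authors deposited scanner output with spot intensity per channel, per the file headers from Agilent Feature Extraction 10.7.3.1 or 10.1.1.1, with control spots and flags. The deposited log10 ratios were made by that software from its background-subtracted, dye-normalized signals, per the file headers; those processed signals were used as an alternative. A table of log2 ratios that the authors deposited was set against those log10 ratios, on the log2 scale, over bright spots of each array, with r of 0.977 to 0.994, slopes of 0.924 to 0.959 and medians of -0.045 to -0.0214, and its exact normalization is not given in the sources used here.

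In R 4.3.3 with limma 3.58.1, median signals of both channels were background corrected (normexp, offset 50) and loess normalized, outlier spots were set to missing (924 values among tested probes) and spots of a probe were averaged. Of 41174 probes, 23607 were tested because their Cy5 signal cleared the background on 14 or more of 30 arrays. All 30 arrays entered one linear model with a mean for each of 6 groups and slide (9 slides) as a random block (correlation 0.147). P-values were Benjamini-Hochberg adjusted over all tested probes. Nothing says that animals were housed or treated apart, so p-values measure the spread between these samples. Each gene was read from 1 tested probe, the brightest in Cy5 on average; 24375 probes matched a symbol through the RefSeq table of GRCm38.p6. The model was checked on simulated data.

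Named genes were the 20 largest rises and falls that passed, up to 4 members of each pathway list with the smallest p, marker genes and a short list of set genes. Other members of the cholesterol, interferon and matrix lists, Orm3, Pttg1, Anapc2, and genes passing on another probe were named after their values were seen. The animals, gene lists and markers were chosen with earlier results of these data known. Alternatives changed the block, normalization, background correction, filter and the animals included. Controls 551 and 552, animals 176 and 552, and the controls of all 3 runs were added as alternatives after seeing the data. A few list members are counted but not reported by name here. Animal labels carry no shared replicate numbers, and slide was the only pairing available.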

Additional observations from a re-analysis of the deposited data

Results flagged for a closer look

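Single animals stood apart within their group for 5 of 70 groups examined (35 genes, 7.14%), by Dixon's gap criterion, which chance meets in about 1 group in 20. Among controls, mouse 549 was high for Fdps at 2.08 and low for Vegfc at -0.24, and mouse 551 was low for Bst2 at 0.87. Among exposed mice, 176 was low for Col3a1 at -4.94 and 180 was high for Dnttip2 at -1.20. In each case the value was far from the nearest of the others relative to the group's range. For Fdps, Col3a1 and Vegfc the exposed and control values did not overlap with these animals included.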

How the results depend on the processing

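The sign of the difference was kept for 19 of the 20 leading genes under all 28 alternatives, and 0 of the 20 passed under every one; Treh turned to -0.15 with processed signals and to -0.21 with processed signals without animals 176 and 552. Lss, Mvk, Treh and Pradc1 each passed under 23 of the 28, Laptm4b under 22 and Stmn1 under 20, while Usp18, Bst2 and Cyp51 passed under 11. The medians of the cholesterol, interferon, matrix and cell cycle lists kept their sign under all 28, from 0.61 to 1.12 for cholesterol, -0.54 to -0.19 for interferon, -0.31 to -0.02 for matrix and -0.38 to -0.04 for cell cycle. The 58 passing probes became 3 with only the 10 arrays and slide as a random block, 0 with only the 10 arrays and slide as a fixed block (limma, 1740 with an unadjusted p under 0.05), 7 with slide fixed over 30 arrays (7 higher, 0 lower), 18 without a slide block, 97 with array weights, 145 without background correction, 172 with processed signals, 163 with the deposited value table and 31 without a filter. They became 29 without controls 551 and 552, 6 without animals 176 and 552, 0 with processed signals without those 2 animals (limma, 2000 with an unadjusted p under 0.05) and 1132 against the controls of all 3 runs. Leaving out 1 animal gave 1 to 88 probes: 14 without 547, 22 without 548, 17 without 550, 88 without 551, 15 without 552, 16 without 176 (15 higher, 1 lower), 1 without 177 and 13 without 180. For the test against the other runs, the count of 0 became 1 with the deposited value table, 1 with processed signals without animals 176 and 552, and 0 to 2 when 1 animal was left out, 2 without 177. The fits with slide fixed pair animals within slides, since the labels share no replicate numbers. The cause of these shifts was not tested. Array number and dim probes limit the precision.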

Other observations

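Of the 58 probes that passed, 9 had no symbol in the table used, with differences from -0.98 to 1.1. Genes that passed on a probe other than the brightest were Resf1 at 0.64, Pes1 at -0.66, Txndc11 at 0.55, Eif4e3 at 0.51 and Mrpl3 at -0.31; their brightest probes did not pass, and that of Txndc11 lay at -0.19. Eif4ebp3, an inhibitor of cap-dependent translation, differed by 0.86 (limma with Benjamini-Hochberg adjustment, adjusted p = 0.0603). The amino acid transporter Slc7a2 and the ornithine aminotransferase Oat, both of periportal or pericentral amino acid metabolism, differed by -0.80 and -0.68 (both adjusted p = 0.0728). In the oxidative phosphorylation list 0 of 32 genes passed, and the median of -0.13 turned to 0.23 with median centring. Between the control runs themselves, controls 547 to 552 differed from 570 to 575 at 15 probes and from 595 to 600 at 10. Lcn2 was 1.41 and 1.58 higher in controls 547 to 552 than in these other runs (adjusted p = 0.375 and 0.247), and did not pass.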
